A study of Mus musculus with 4 samples.

Results

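Neighbouring NF-Y regions are places in the mouse genome where separately called NF-Y sites lie within 1000 bp of each other without merging. Sites of the NF-YA, NF-YB and NF-YC lists were pooled, and sites whose neighbouring centres lay within 200 bp were chained into a region. A region was kept when the gap to the region before or after it was at most 1000 bp, taken between the facing outermost site centres. The members were thus chosen by the called positions, and this kept 317 of 5350 regions (5.93%). The 317 regions formed 161 pairs, in 151 runs of 2 regions and 5 runs of 3, and the runs spanned a median of 600 bp (range 280 to 1880 bp).

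The sites were mapped in mouse embryonic stem cells of the line E14Tg2a, strain 129/Ola. The cells were unmodified and untreated as far as the labels say, grown in serum medium with LIF at passages 20 to 35 and fixed with 1% formaldehyde for 10 min. Each subunit was precipitated once, with a mouse monoclonal antibody for NF-YA and rabbit polyclonal antibodies for NF-YB and NF-YC, and input DNA served as the control in site calling. Between 11390494 and 13859303 tags per library were kept for calling, against 13767116 input tags, and the caller's minimum was 14 tags per site (15 in the NF-YB library). There was 1 library per subunit, so no value below has a replicate check, and intervals cover counting error only. The positions that chose the regions come from the same calls as the tag counts and folds. All values are therefore descriptions of these lists, and no test is given.

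NF-Y is a trimer that binds the CCAAT box, a motif common in promoters. NF-YB and NF-YC pair through histone-fold domains much like those of H2B and H2A and contact DNA with little sequence preference. NF-YA joins that dimer and inserts into the minor groove at the motif. CCAAT boxes can occur more than once in a promoter, and closely spaced NF-Y sites are a known arrangement in genes of the cell cycle. Sites with centres within 200 bp fall in a single region here, so boxes that close would not appear as a pair. The pairs are therefore not read as that arrangement. Genes, exons and sequence at the regions were not analysed here, because the positions are in mm9 and the reference tables used here are in GRCm38.

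Sites of all 3 subunits were called in 115 of the 317 neighbouring regions (36.3%, exact 95% binomial interval 31.0 to 41.8), where 32.2% of all 5350 regions had them. The share among the 5033 other regions was 32.0%, and among the 637 regions whose nearest gap was over 1 kb and up to 10 kb it was 31.6%. The interval of the neighbouring regions holds these values. The interval treats regions as independent, although neighbours come in pairs. With sites chained within 100 bp instead, the members numbered 560 and 20.4% of them held all 3. The share over all regions was not computed with that chaining, so the 20.4% is not comparable with the 32.2%. NF-YA alone was called in 101 neighbouring regions (31.9%, against 31.6% of the others). NF-YA with NF-YB and NF-YA with NF-YC were found in 33 regions each (10.4%, against 11.3% and 11.5%). NF-YB alone stood at 5.36% against 7.31%, NF-YC alone at 4.42% against 5.25%, and the histone-fold subunits without NF-YA at 4 regions. The subunit make-up of the neighbouring regions was thus close to that of the rest in every category.

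**Figure D1:**
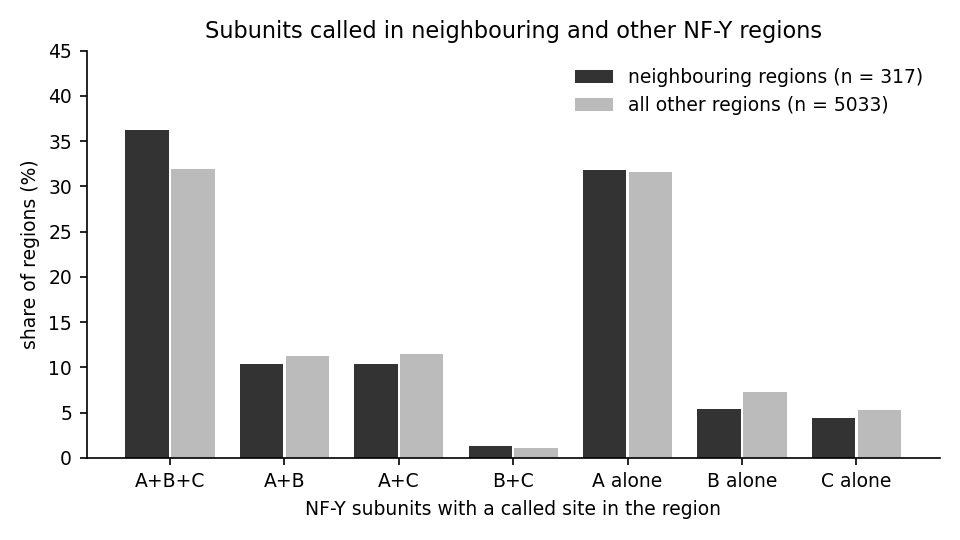
Share of regions (y axis, percent) with each combination of called subunits (x axis; A, B and C stand for NF-YA, NF-YB and NF-YC), in the 317 neighbouring regions (dark bars) and the 5033 other regions (grey bars). All 3 subunits made up 36.3% of neighbouring and 32.0% of other regions, and NF-YA alone 31.9% and 31.6%.

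The members took 282 of 4642 NF-YA sites (6.07%), 169 of 2774 NF-YB sites (6.09%) and 166 of 2675 NF-YC sites (6.21%). The 3 lists thus gave nearly equal shares of their sites. The tags of these sites were somewhat higher in each library. The median NF-YA site of a neighbouring region had 44 tags (quartiles 23 and 79.8), against 34 in other regions (21 and 64). The member median was 68 NF-YA tags when only sites at or above their list's median tag count were used, and 74 with the corresponding limit on fold. These limits drop the lower sites of each list, and other regions were not measured under them. The 68 and 74 are therefore not comparable with the 34. NF-YB stood at 51 against 42 tags, and NF-YC at 43.5 against 36 tags. Folds over input, as the authors' caller gave them, were nearer to each other: the NF-YA medians were 18.0 and 16.8, the NF-YB medians 16.2 and 16.9, and the NF-YC medians 17.7 and 16.3.

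The height of the tags was not alike across subunit combinations. Regions of NF-YA alone had a median of 21 NF-YA tags both among neighbouring and among other regions. In regions of all 3 subunits NF-YA stood at 75 against 70 tags, NF-YB at 62 against 58, and NF-YC at 53 against 44. Regions of all 3 whose nearest gap was over 1 kb and up to 10 kb had 77 NF-YA, 62 NF-YB and 47 NF-YC tags, so the NF-YA and NF-YB medians there were as high as in neighbouring regions. The wider gaps were in regions of 2 subunits: NF-YA with NF-YC had 58 against 34 NF-YA tags, and NF-YA with NF-YB had 43 against 29.5 NF-YA tags, over 33 neighbouring regions each. No 2 sites of a list lay closer than 240 bp, against the caller's fragment lengths of 224 to 238 bp. The sample labels give a wider range of fragments, 200 to 500 bp, so a single fragment could span both sites of many pairs. The deposited lists do not give the stretch over which tags were counted, so some tags may still be counted at both of 2 neighbouring sites. The part of this in the higher counts was not tested.

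The call of all 3 subunits was also compared at like NF-YA tag counts. Among regions with 14 to 19 NF-YA tags, 4 of 53 neighbouring regions had all 3 subunits (7.55%), against 3.92% of 944 others. The shares were 12.2% of 41 against 16.5% for 20 to 29 tags, 28.3% of 60 against 33.7% for 30 to 49 tags, and 61.3% of 80 against 62.7% for 50 to 99 tags. At 100 or more tags they were 83.3% of 48 against 92.1%. In 4 of these 5 bands the neighbouring regions had the lower share, and in the lowest band the higher one.

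The scaled input at a site is its tags divided by its fold. Its median was 3.02 at neighbouring NF-YB sites against 2.01 at other NF-YB sites, while the medians of the 2 groups were both 2.50 for NF-YA and both 2.48 for NF-YC. It was over 4 at 24.8% of neighbouring NF-YA sites and 18.8% of the other NF-YA sites. For NF-YB the shares were 38.5% and 30.4%, and for NF-YC 23.5% and 21.3%. Sites wider than 200 bp made up 4.96% of neighbouring NF-YA sites against 4.75% of the others, 6.51% against 1.65% for NF-YB and 7.83% against 2.95% for NF-YC. These wide NF-YB and NF-YC sites numbered 11 and 13. The part of input level in the tag counts was not tested.

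The gaps of the 161 pairs had a median of 440 bp (quartiles 300 and 670 bp, range 210 to 1000 bp). Gaps of at most 500 bp made up 92 pairs (57.1%) and longer ones 69 pairs. In steps of 100 bp, 43 pairs lay at gaps of up to 300 bp and 31 at gaps over 300 and up to 400 bp, while the steps above 700 bp held 11 to 13 pairs each. Every gap is over 200 bp by the chaining rule, whichever lists the facing sites come from. The calling sets a further limit within a list only. No 2 sites of a list had centres closer than 240 bp, while the caller's fragment lengths were 224 to 238 bp. The fragments of 200 to 500 bp given by the sample labels take in the gaps of the 92 closer pairs. The rule also leaves out closely spaced sites that a site of another list joins. Adjacent NF-YA sites were spaced by at most 1000 bp in 137 cases, 11 of them with the 2 sites in the same region. The NF-YB list had 8 such cases of 49, and the NF-YC list 4 of 41. The 16 regions that held such sites are not members on that account.

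The limit of 1000 bp cut through a continuous range. The longest gaps inside it were 1000, 990 and 970 bp, the last shared by 4 pairs, of which the first by chromosome name is given. On chromosome 8 (mm9) a region of NF-YA and NF-YB from 73987591 to 73987711 had 80 NF-YA and 65 NF-YB tags, and its partner from 73988631 to 73988671 had 28 NF-YA tags alone. The pair on chromosome 1 at 182833271 and 182834331 had 19 NF-YA tags beside a region where NF-YA had 67 tags, NF-YB 75 and NF-YC 103. The pair on chromosome 10 at 79459131 and 79460131 had 144 and 45 NF-YA tags. Just outside lay chromosome 17 at 34117251 (gap 1030 bp, 15 and 32 NF-YB tags), chromosome 4 at 97438931 (1040 bp, 18 and 44 NF-YA tags) and chromosome 7 at 6682151 (1040 bp, 19 and 22 NF-YA tags). These are among 60 gaps longer than 1000 bp and at most 2000 bp.

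Subunits called on both sides of a pair were counted next. At least 1 subunit was called in both regions of 148 of 161 pairs (91.9%, exact interval 86.6 to 95.6), and in 51.2% of pairs when sites were chained within 100 bp. NF-YA was that subunit in 127 pairs, NF-YB in 42 and NF-YC in 39. Where NF-YA was called in either region, it was called in both in 127 of 159 pairs (79.9%). NF-YB was in both regions of 42 of 129 pairs that held it (32.6%) and NF-YC in 39 of 131 (29.8%). These counts go with how often each subunit was called at all: NF-YA was called in 86.6% of all regions and 89.0% of the neighbouring ones, NF-YB in 51.7% and 53.3%, and NF-YC in 49.9% and 52.4%. Nothing particular to the pairs is read from them. NF-YA was the only subunit in both regions of 84 pairs, and all 3 subunits were in both regions of 16 pairs (9.94%).

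**Figure D2:**
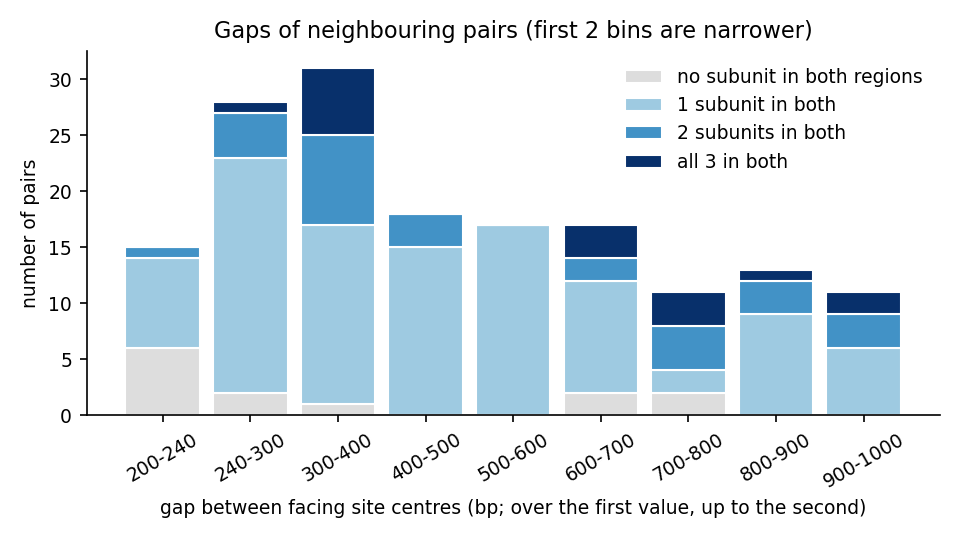
Number of pairs (y axis) by gap in bp (x axis, bins over the first and up to the second value, the first 2 bins being narrower), with bars divided by how many subunits were called in both regions. Pairs that shared no subunit were 6 of the 15 with gaps up to 240 bp, and pairs with all 3 on both sides were absent between 400 and 600 bp.

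The commonest arrangement was a region of all 3 subunits beside a region of NF-YA alone, in 43 of 161 pairs (26.7%). In each of these 43 pairs the NF-YA tags were higher in the region of all 3. The medians were 83 tags (range 36 to 263) in the region of all 3 and 21 tags (14 to 86) in the region of NF-YA alone, and the median ratio within a pair was 3.53. Other regions show a like order, with medians of 70 and 21 tags in the same 2 categories. The gap of these pairs had a median of 440 bp and ran from 240 to 990 bp. Next came 16 pairs of all 3 beside all 3, 14 of all 3 beside NF-YA with NF-YB, and 14 of NF-YA alone beside NF-YA alone. In the last category the tags ran from 14 to 53 and the median ratio was 1.58.

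A region of all 3 subunits was present in 101 of the 161 pairs (62.7%). Counted over its 2 regions, a pair held sites of all 3 in 112 cases (69.6%). A pair has 2 regions that can hold the calls. These shares are therefore not comparable with the 32.2% of all regions, or 36.3% of neighbouring ones, that had all 3. Nothing particular to the pairs is read from them. A region of all 3 stood beside NF-YB alone in 8 pairs, with more NF-YB tags than its partner in 7 (median 50.5 against 23.5 tags). It stood beside NF-YC alone in 9 pairs, with more NF-YC tags in 6 (median 28 against 24 tags). The NF-YC contrast was thus the smallest of the 3 in these arrangements, over few pairs.

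Tags within a pair were mostly unequal. Over the 127 pairs with NF-YA in both regions, the stronger site had a median of 70 tags and the weaker 24, and the median ratio was 2.32 (quartiles 1.48 and 3.66, highest 13.5). The ratio was under 1.5 in 32 pairs (25.2%) and over 3 in 45 (35.4%). In 40 pairs the exact 95% interval of the stronger site's share of the tags included 50%, so an equal division lay within counting error there. In the other 87 pairs the interval lay above 50%. Every list stops at 14 or 15 tags, which bounds the ratio from above where the stronger site is itself low.

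NF-YB tags were about as unequal as NF-YA tags, with a median ratio of 2.26 over 42 pairs (stronger 77.5, weaker 30 tags). The interval of the stronger share lay above 50% in 33 of them. NF-YC tags were nearer to each other, with a median ratio of 1.47 over 39 pairs (57 and 35 tags) and an interval above 50% in 16. By the authors' fold the medians came closer together, with 1.97 in the NF-YA list, 1.65 in the NF-YB list and 1.96 in the NF-YC list. The lower ratio of NF-YC was therefore seen in tags and not in fold. Between the site at the lower coordinate and its partner, Spearman's rho of the tags across pairs stood at -0.04 in the NF-YA list (127 pairs), -0.02 in the NF-YB list (42) and 0.33 in the NF-YC list (39). The points of each rho share a library, and pairs in runs of 3 share a region.

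**Figure D3:**
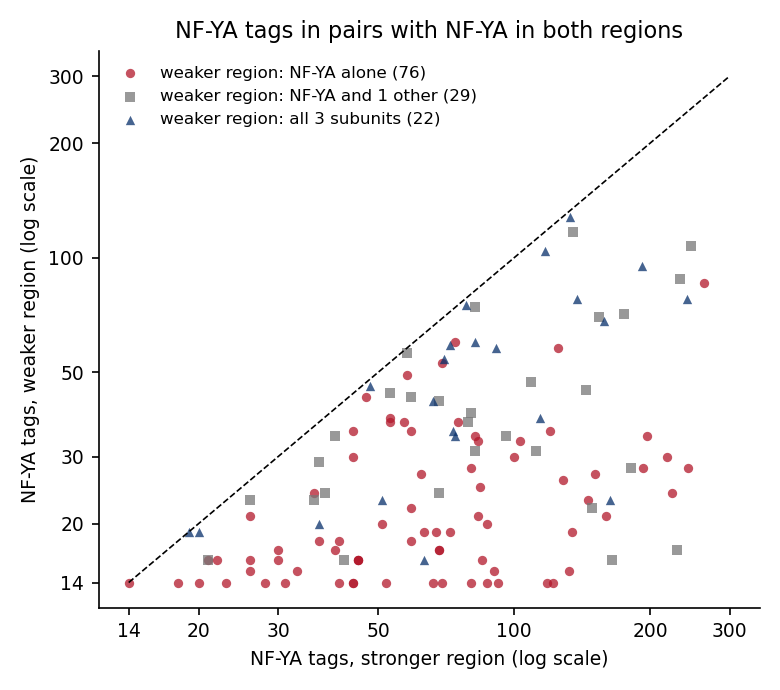
NF-YA tags of the weaker region (y axis, log scale) against the stronger region (x axis, log scale) in the 127 pairs with NF-YA in both, with symbols for the subunits called in the weaker region (a tied pair is shown by its region of higher coordinate). The dashed line marks equal tags. Weaker regions of NF-YA alone (red) gather near the minimum of 14 tags, while stronger regions reach over 200 tags.

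The number of subunits called followed NF-YA tags within a pair. In the 125 pairs without a tie, the stronger region had more subunits in 80, the same number in 35 and fewer in 10. All 3 subunits were called in 76 of the stronger regions (60.8%) and 21 of the weaker (16.8%). Other regions with NF-YA show a like order. Their share with all 3 was 3.92% at 14 to 19 NF-YA tags and 92.1% at 100 or more. The order is therefore not read as particular to the pairs. NF-YA stood alone in 17 stronger regions and in 75 weaker regions (60.0%). NF-YB was called in 72.8% of the stronger and 29.6% of the weaker regions, and NF-YC in 74.4% and 27.2%. The stronger sites were narrower, with a median width of 40 bp against 60 bp, and their median fold was 24.7 against 12.0. Other regions of all 3 subunits and of NF-YA alone had median NF-YA widths of 40 and 60 bp and folds of 28.8 and 11.2. In the 10 pairs where the weaker region had more subunits, the median ratio of NF-YA tags was only 1.37.

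The extremes show the range of these pairs. On chromosome 11 (mm9) a region from 105898071 to 105898111 had 229 NF-YA, 132 NF-YB and 94 NF-YC tags. Its partner from 105898851 to 105899071 had 17 NF-YA and 17 NF-YC tags and no NF-YB site, a 13.5-fold difference in NF-YA tags. On chromosome 2 a region at 11699231 had 165 NF-YA, 128 NF-YB and 105 NF-YC tags, and its partner at 11700071 had 16 NF-YA and 15 NF-YB tags. On chromosome 19 the order along the chromosome was the opposite: 24 NF-YA tags alone at 4096811 stood before 224 NF-YA, 207 NF-YB and 140 NF-YC tags at 4097191. All 3 had a full set of subunits on the strong side only.

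The pairs of most equal NF-YA tags lay at low and at middle tag counts. A pair with 133 and 128 NF-YA tags, described below, was nearly as equal. On chromosome 14 the regions at 76894751 and 76895011 had 14 NF-YA tags each, the least that could be called, and no other subunit. On chromosome 7 the regions at 88296251 and 88297191 had 19 NF-YA tags each, with 31 and 19 NF-YB tags and 36 and 25 NF-YC tags. This pair thus held all 3 subunits on both sides at a tag count where few NF-YA regions had them. On chromosome 5 the regions at 121062911 and 121063371 had 56 and 58 NF-YA tags, and NF-YB was called in the first only, with 23 tags.

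The 16 pairs of all 3 subunits on both sides had the full set of NF-Y calls on either side of the gap. Their NF-YA tags ran from 19 to 241 (median 74.5), NF-YB from 16 to 183 (51) and NF-YC from 14 to 83 (40). The median ratio within these pairs in NF-YA tags was 1.57, in NF-YB tags 1.98 and in NF-YC tags 1.42. The same region was the stronger for all 3 subunits in 10 of the 16. Their gaps fell in 2 stretches, with 7 pairs at 300 to 390 bp, none over 400 and up to 600 bp, and 9 at 620 to 960 bp. With 16 pairs this division is only noted, and it was seen after the values were known. Over all pairs such gaps did occur, 18 over 400 and up to 500 bp and 17 over 500 and up to 600 bp. The spacing between NF-YA centres is another measure, and it was over 400 and up to 600 bp in 32 of 127 cases. Among these 32 is a pair of all 3 on both sides, on chromosome 17 at 56218471, with an NF-YA spacing of 460 bp.

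Among these pairs the 6 with most NF-YA tags in the weaker region were the following. On chromosome 4 (mm9), regions from 117852271 to 117852391 and from 117852631 to 117852791 had 133 and 128 NF-YA tags, 111 and 82 NF-YB tags and 56 and 68 NF-YC tags. The stronger NF-YA share was 51.0% (exact interval 44.7 to 57.2), so the 2 regions were equal within counting error for NF-YA. On chromosome 9, regions from 21760111 to 21760171 and from 21760451 to 21760551 had 117 and 104 NF-YA tags and 60 and 54 NF-YC tags. NF-YB differed there, with 140 and 29 tags, and its stronger share was 82.8% (76.3 to 88.2). By tags NF-YA and NF-YC were even within counting error while NF-YB was 4.83-fold higher on the first side. By fold the order was not the same: NF-YA had 23.4 and 62.4, NF-YC 12.1 and 32.6, and NF-YB 23.2 and 14.4.

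On chromosome 15, regions from 103069891 to 103069971 and from 103070531 to 103070851 had 192 and 95 NF-YA, 107 and 43 NF-YB and 76 and 38 NF-YC tags. The first region was the higher for each subunit, and each share's interval lay above 50%. On chromosome 14, regions from 56179271 to 56179451 and from 56179651 to 56179731 had 78 and 138 NF-YA, 74 and 183 NF-YB and 47 and 75 NF-YC tags, with the second region higher each time. On chromosome 17, regions from 56218471 to 56218571 and from 56218911 to 56219011 had 78 and 241 NF-YA, 30 and 112 NF-YB and 45 and 63 NF-YC tags. The NF-YC share there, 58.3% (48.5 to 67.7), did not exclude an equal division. On chromosome 13, regions from 48641271 to 48641391 and from 48641971 to 48642131 had 75 and 78 NF-YA, 49 and 42 NF-YB and 36 and 33 NF-YC tags, equal within counting error for every subunit. By fold the first region was the higher, at 89.9 and 45.6 for NF-YA, 48.7 and 20.9 for NF-YB and 43.5 and 18.1 in the NF-YC list.

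**Figure D4:**
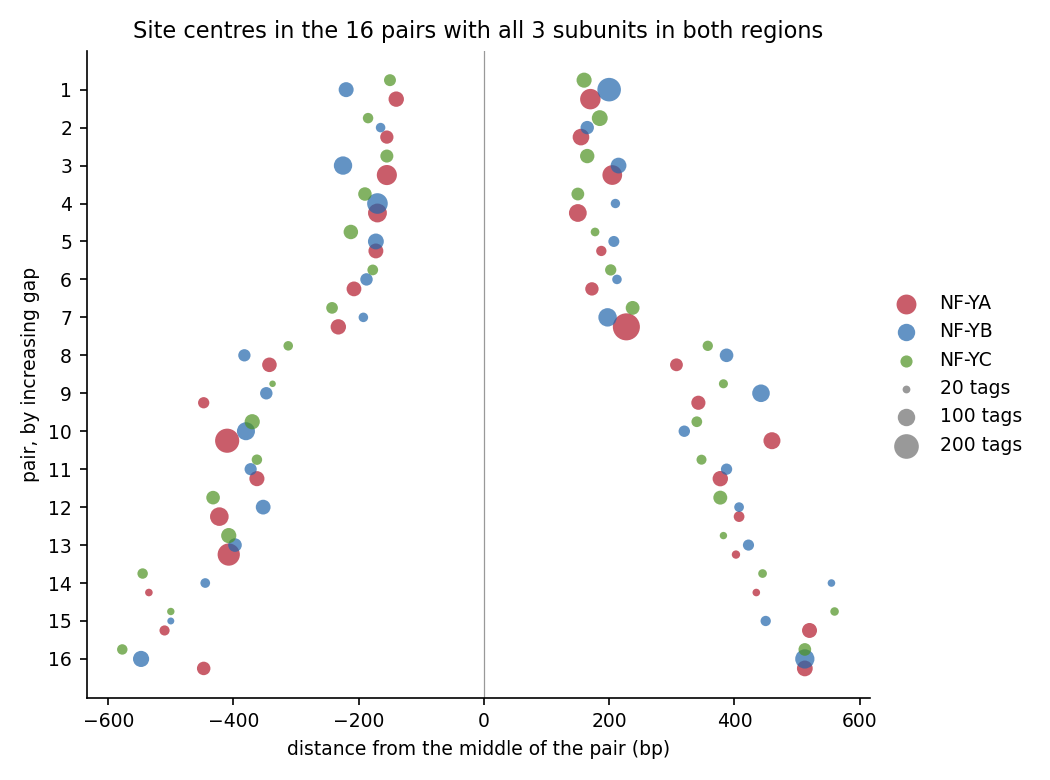
Site centres of NF-YA (red), NF-YB (blue) and NF-YC (green) as distance in bp from the middle of the pair (x axis) in the 16 pairs with all 3 subunits on both sides, ordered by gap (y axis), with symbol area in proportion to tags. The 7 closest pairs have gaps of 300 to 390 bp and the other 9 have gaps of 620 to 960 bp.

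Where 2 or more subunits were called on both sides, they placed the sites at similar spacing. Each list was called from its own library, so the spacing was measured separately by each, although the region rule itself limits how far subunits can lie apart. Over the 44 such pairs the spacings of the subunits differed by a median of 50 bp (quartiles 30 and 90, range 0 to 200 bp), and by at most 50 bp in 23. For NF-YA and NF-YC the median difference was 30 bp over 28 pairs, for NF-YB and NF-YC 40 bp over 17 and for NF-YA and NF-YB 50 bp over 31. In these 31 the NF-YA spacing was the shorter in 20, the longer in 8 and equal in 3 (medians 460 and 560 bp). Against NF-YC, the NF-YA spacing was shorter in 12 and longer in 14, and the NF-YB spacing shorter in 8 and longer in 9. The caller's scanning window was 20 bp. Within a neighbouring region the centres of NF-YA and NF-YB lay a median of 30 bp apart, against 20 bp in other regions. NF-YA and NF-YC lay 20 bp apart in both groups, and NF-YB and NF-YC 30 bp.

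**Figure D5:**
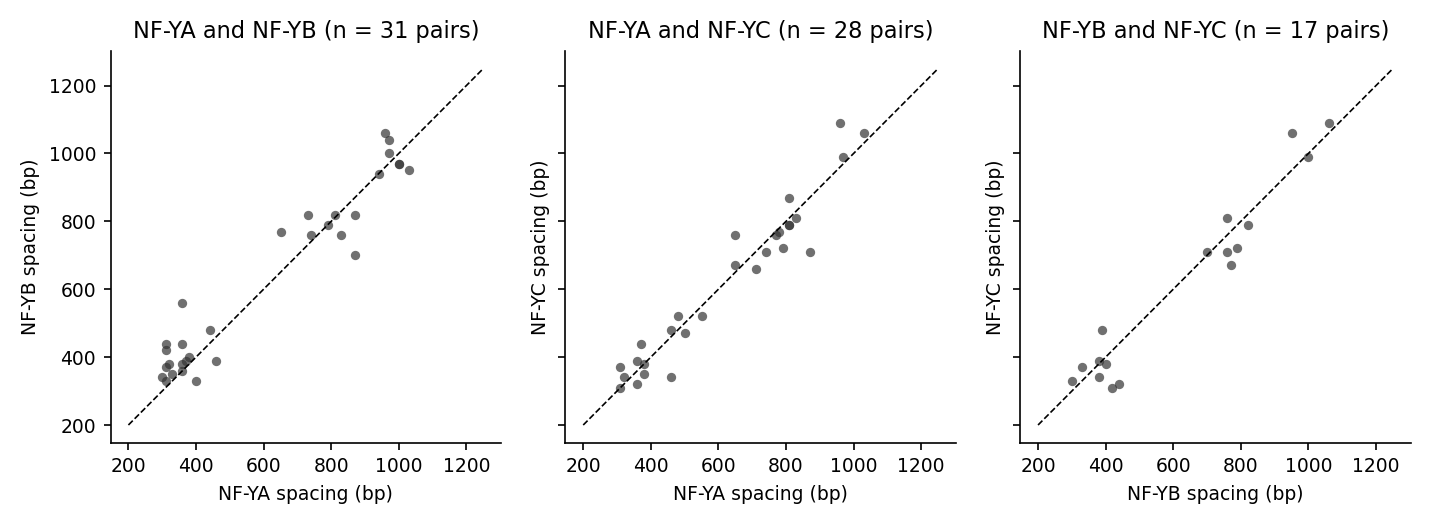
Distance in bp between the 2 sites of a subunit across a pair, for NF-YA and NF-YB (left), NF-YA and NF-YC (middle) and NF-YB and NF-YC (right), 1 point per pair. Points lie near the dashed line of equal spacing, with median differences of 50, 30 and 40 bp. In the left panel the NF-YA spacing was the shorter in 20 of 31 pairs and the longer in 8.

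The subunits also pointed mostly to the same stronger side. NF-YA and NF-YB had more tags on the same side in 27 of 30 untied pairs, NF-YB and NF-YC in 14 of 17, and NF-YA and NF-YC in 19 of 27. Spearman's rho of the log2 ratios between the sides was 0.90 for NF-YA with NF-YB (31 pairs), 0.79 for NF-YB with NF-YC (17) and 0.74 for NF-YA with NF-YC (28). These rho values run across pairs, which share the 3 libraries and the input. In the 31 pairs with NF-YA and NF-YB on both sides the median ratios were 2.02 and 2.19. In the 28 pairs with NF-YA and NF-YC on both sides they were 1.69 and 1.45.

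A total of 13 pairs had no subunit in common. Of these, 6 had gaps of at most 240 bp, the smallest spacing of 2 sites of a single list. A gap that short does not preclude a shared subunit, since sites of a list need not be the facing ones. Of all 15 pairs with such gaps, 8 had 1 subunit in both regions and 1 had 2. In 4 of the 13 the site intervals of the 2 regions overlapped, as they did in 10 of all 161 pairs, at gaps of up to 270 bp. In each of those 10 the wider site spanned 360 to 1260 bp. The regions of such pairs are not separate stretches of DNA, and their gap is a distance between centres of overlapping sites.

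The clearest of these lay on chromosome 3 (mm9) in a run of 3 regions. NF-YB had separate sites from 95428791 to 95428831 (96 tags) and from 95429231 to 95429291 (219 tags). NF-YA had a single site from 95428791 to 95429251 (226 tags) and NF-YC a single site from 95428791 to 95429271 (105 tags). Each covered the first NF-YB site and overlapped part of the second. The NF-YA and NF-YC centres fell between the NF-YB sites and made a region of their own. The same kind of offset was seen on chromosome 3 at 89222351 to 89222791, where a 440 bp NF-YA site (101 tags) overlapped a region with 54 NF-YB and 30 NF-YC tags. On chromosome 7 an NF-YB site from 144602471 to 144602511 (69 tags) lay 250 bp from a region with 60 NF-YA and 65 NF-YC tags, and those intervals did not overlap.

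The shortest gap, 210 bp, was shared by 3 pairs. Besides the run on chromosome 3 they were chromosome 17 at 85356551 and 85357051, and chromosome 8 at 116158891 and 116158971. On chromosome 17 a 540 bp NF-YB site with 120 tags reached over the second region, while NF-YA had a site on each side (68 and 158 tags) and so did NF-YC (58 and 66 tags). On chromosome 8 NF-YB had a site on each side (127 and 24 tags), with 156 NF-YA and 80 NF-YC tags on the second side only. In each of the 3 cases a list had 2 sites where another list had a single site of 460 to 540 bp.

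The other runs of 3 differed in make-up. On chromosome 7 (mm9), from 26052491 to 26053311, regions of all 3 subunits flanked an NF-YC site of 39 tags. The first region had 56 NF-YA, 48 NF-YB and 81 NF-YC tags, and the last had 226 NF-YA, 178 NF-YB and 148 NF-YC tags. The NF-YC sites of this run were spaced by 340 and 310 bp. On chromosome 9, a region with 18 NF-YC tags at 111424871 was followed by regions of all 3 at 111425711 and 111426511. These had 42 and 66 NF-YA tags, 51 and 102 NF-YB tags and 14 and 27 NF-YC tags, so each count was higher in the last region. The NF-YC share there, 65.9% (49.4 to 79.9), did not exclude an equal division.

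The remaining 2 runs were led by a single region. On chromosome 8, from 4677431 to 4678011, a region of 83 NF-YA, 71 NF-YB and 31 NF-YC tags was followed by NF-YA sites of 21 and 16 tags, at spacings of 260 and 270 bp. On chromosome 5, from 109986051 to 109987471, a region of 44 NF-YA, 16 NF-YB and 18 NF-YC tags had an NF-YA site of 14 tags on either side, at 350 and 1030 bp. In both runs the outlying regions held NF-YA alone.

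Neighbouring regions were unevenly shared among the chromosomes. Chromosome 7 held 43 of them, in 21 runs, which was 9.25% of its 465 regions. Chromosome 13 followed with 16 of 203 (7.88%) and chromosome 19 with 14 of 187 (7.49%), while chromosome 4 had 12 of 381 (3.15%). Chromosome 11 carried most regions per Mb, 3.88, and stood at 5.64%, near the 5.93% of all chromosomes. Without chromosome 7 the share was 5.61%. The windows of 5 Mb with most runs were chromosome 7 from 15000001 to 20000000 and from 25000001 to 30000000, and chromosome 11 from 75000001 to 80000000, each with 4. In that order these windows held 40, 59 and 24 regions, so the same number of runs came from unlike numbers of regions. On chromosome Y the 2 members, of 5 regions, were a 1260 bp NF-YC site of 60 tags and the 440 bp NF-YB site of 33 tags that lay inside it.

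Outside their own run, neighbouring regions also had company at longer range somewhat more often. Another region lay within 10 kb of 53 of the 317 (16.7%), against 635 of 5033 others (12.6%), and within 100 kb of 216 (68.1%) against 3106 (61.7%). On chromosome 13 from 20000001 to 25000000, a stretch known for its cluster of replication-dependent histone genes, 6 of 43 regions were members, in 3 pairs. Members made up 5.93% of all regions. The stretch was chosen because it holds the 100 kb windows densest in regions. Its number of members is therefore not comparable with that share. The pair of this stretch from 23837431 to 23838571 had all 3 subunits on both sides, with 60 and 82 NF-YA, 86 and 122 NF-YB and 36 and 53 NF-YC tags. The 5 Mb windows were set after the values were seen, and windows on other chromosomes also held 3 or 4 runs. Genes were not annotated here, so a link of these pairs to histone genes was not tested.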

How the data were processed

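The ChIP-seq site lists of the 3 subunits (1 library each) were used, and the input entered only through the authors' calling. Per the submitters' processing notes, Bowtie and the mm9 build were used for the reads. Sites were called per library with SISSRs 1.4 against the input, per the file headers, at a p-value threshold of 0.001, an e-value of 10, a 20 bp window and 1 tag kept per position. The deposited tag counts are whole, unnormalized tags per site. The fold, also deposited, is a ratio of a site's tags to scaled input tags. The deposited p-value was not used. Positions are printed as deposited.

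Centres are (start + end)/2. Where a region held several sites of a list, the one with most tags stood for it. Regions, pairs and medians were computed with pandas 2.3.3, numpy 2.4.6 and scipy 1.17.1 under Python 3.11.15 and drawn with matplotlib 3.10.9. The code was tested on simulated lists with planted pairs. Binomial intervals are exact (Clopper-Pearson). Named pairs were those of all 3 subunits with most NF-YA tags in the weaker region, runs of 3, pairs of smallest and largest gap and just outside the limit, pairs of most and least equal NF-YA tags, and pairs without a shared subunit with most tags. The members and lists were chosen with earlier results of these data known. The tag bands and the 5 Mb windows were set after the values were seen. The planned CCAAT and gene annotation was not run for want of mm9 sequence.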

Additional observations from a re-analysis of the deposited data

How the results depend on the processing

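Of 55 alternative values, 40 kept within the exact 95% interval of the reported share or median, or within 1.5 times the reported number of regions. Chaining sites within 100 bp instead of 200 bp raised the neighbouring regions from 317 to 560 and lowered the share with all 3 subunits from 36.3% to 20.4%. It also lowered the share of pairs with a common subunit from 91.9% to 51.2%, since sites of different lists 100 to 200 bp apart then count as separate regions. Chaining within 300 bp gave 95.8% for that share. A gap of at most 500 bp left 181 regions. Sites at or above the median tag count of their list gave 112 regions, a median of 68 NF-YA tags and a median NF-YA ratio of 1.57. Sites at or above the median fold gave 117 regions, 23.9% with all 3 subunits, 84.7% of pairs with a common subunit and a median of 74 NF-YA tags. The median NF-YA ratio stayed at 2.26 under the limit on fold. Both settings drop about 50% of the sites. All alternative values cover neighbouring regions or their pairs only. The same values over other regions were not computed, so these shares and medians are not set against them. Without the NF-YA list 157 regions and 82.7% were left. The NF-YA ratio by fold was 1.97 instead of 2.32. Leaving out chromosome 13 or sites over 200 bp wide moved none of the 6 values beyond these bounds. Leaving out the NF-YB or NF-YC list was run only for the number of regions and the share of pairs with a common subunit, and moved neither. The intervals treat regions or pairs as independent.

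No paired analysis was possible because there was only 1 library of a kind, so that leaving out a replicate was not an option either. A site under 14 or 15 tags is missing from its list, so a subunit not called on 1 side of a pair is not shown to be absent there.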
